A study of Mus musculus with 24 samples.

Results

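The genes described here encode the enzymes that make cholesterol and fatty acids, with the proteins that control that synthesis. They were followed in the caudal ends of mouse embryos with and without Srf, the gene of serum response factor. The list was given by name, with no measured value in its rule, but it was proposed with earlier results of these data known, so its counts are not those of an unselected list. Of its 31 genes, 29 had a probe in the deposited bead table, and Mvk and Fdft1 had none. These 29 genes had 38 probes, of which 35 were detected above the arrays' negative controls on at least 4 of the 24 arrays. All 29 genes kept at least 1 such probe and were tested among 11008 genes or unnamed probes.

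Cells make cholesterol from acetyl-CoA through mevalonate, isoprenoid units, squalene and lanosterol. When sterols are low in the endoplasmic reticulum, the precursor of SREBP-2, encoded by Srebf2, leaves with its escort SCAP, is cleaved in the Golgi and enters the nucleus, where it binds sterol regulatory elements next to most genes of the pathway. When sterols are ample, Insig1 holds the precursor back. SREBP-1, encoded by Srebf1, acts mainly on genes of fatty acid synthesis. In the embryo, cholesterol builds membranes and modifies Hedgehog proteins, and loss of its last steps disturbs development in mice and humans.

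Promoter sequences are given first, because nearby binding sites are what these genes are known to share. RefSeq promoters (assembly GRCm38.p6, 300 bases, from 250 before to 50 after the annotated start) were given for 24 of the 31 genes, in 29 windows. A sterol regulatory element core, TCACNCCAC on either strand, was present in 1 of these windows, that of Hmgcs1, which is 3.45% of them against 1.24% of all 32841 promoters. A CCAAT box, CCAAT on either strand, bound by NF-Y, which works with SREBPs on known target promoters, was present in 21 of the 29 windows, or 72.4%, against 37.4% of all promoters and 37.9% of those of the tested genes. By gene, 20 of 24 had a CCAAT box in at least 1 window, and the share by gene over all genes was not computed. The CArG box, the element that serum response factor binds, was present in 0 of 29 windows and in 1.63% of all promoters. A missing match says only that these letters are not in the window. The promoters of the mevalonate enzymes Hmgcs1 and Mvd and of the regulators Insig1 and Srebf2 are shown for the arrangement of these matches. That of Aacs is shown as a promoter without a match. Capitals mark matches to the sterol element core and to the CCAAT box, which reads ATTGG where it lies on the other strand.
Hmgcs1 (chr13:119690101-119690400, strand +): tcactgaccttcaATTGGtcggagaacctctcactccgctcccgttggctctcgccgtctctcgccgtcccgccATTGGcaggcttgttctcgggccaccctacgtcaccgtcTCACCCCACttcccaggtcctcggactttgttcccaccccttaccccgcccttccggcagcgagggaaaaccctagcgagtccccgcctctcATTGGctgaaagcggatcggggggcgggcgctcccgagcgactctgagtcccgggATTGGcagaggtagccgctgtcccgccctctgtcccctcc
Mvd (chr8:122443373-122443672, strand -): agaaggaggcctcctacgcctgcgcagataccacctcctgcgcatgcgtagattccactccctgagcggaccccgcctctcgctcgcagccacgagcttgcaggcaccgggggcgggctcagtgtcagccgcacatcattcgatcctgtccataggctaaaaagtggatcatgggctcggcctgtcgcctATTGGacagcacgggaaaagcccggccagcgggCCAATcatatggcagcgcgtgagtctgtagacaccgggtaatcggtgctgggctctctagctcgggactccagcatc
Insig1 (chr5:28071162-28071461, strand +): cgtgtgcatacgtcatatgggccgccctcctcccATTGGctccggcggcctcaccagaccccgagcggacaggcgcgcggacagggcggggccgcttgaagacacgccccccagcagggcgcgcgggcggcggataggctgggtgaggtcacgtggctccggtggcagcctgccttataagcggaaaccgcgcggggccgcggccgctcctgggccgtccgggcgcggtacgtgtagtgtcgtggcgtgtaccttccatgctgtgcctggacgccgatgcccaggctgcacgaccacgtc
Srebf2 (chr15:82147019-82147318, strand +): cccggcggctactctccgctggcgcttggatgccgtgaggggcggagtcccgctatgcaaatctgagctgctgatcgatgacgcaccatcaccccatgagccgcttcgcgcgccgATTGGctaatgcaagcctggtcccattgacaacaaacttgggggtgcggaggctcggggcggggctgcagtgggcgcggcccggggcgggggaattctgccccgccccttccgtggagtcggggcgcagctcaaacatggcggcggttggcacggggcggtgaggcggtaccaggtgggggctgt
Aacs (chr5:125475623-125475922, strand +): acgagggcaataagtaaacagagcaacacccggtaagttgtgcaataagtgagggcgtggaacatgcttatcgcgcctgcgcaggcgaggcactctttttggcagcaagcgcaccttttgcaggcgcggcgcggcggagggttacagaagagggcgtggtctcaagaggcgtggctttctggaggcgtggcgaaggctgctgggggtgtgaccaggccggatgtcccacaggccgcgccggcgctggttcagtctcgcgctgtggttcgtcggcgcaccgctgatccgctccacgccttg
In Hmgcs1 the sterol element core began 137 bases before the start and lay between 4 CCAAT boxes. In 1 window, that of Fasn, CCAAT matches on opposite strands overlapped each other, and no other matches overlapped. The matches are descriptions of the letters, and binding was not measured.

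The arrays measured total RNA of the unsegmented caudal end, the tail region of the embryo that has not yet formed somites, in 6 groups of 4 arrays. Knockout embryos, titled SRFcko, carried the genotype label Srf(-/-), and controls, titled wt, carried the label Srf(+/-). The strain label was C57Bl/6, and embryos were staged as E8.5, E8.75 or E9.0, in days of gestation. They came from crosses of SRF(flex1/+); T:cre/T:cre parents, so the controls carried the Cre transgene too. T drives this Cre in the primitive streak and the mesoderm it gives rise to, so cells of the caudal end outside that lineage keep Srf. The labels do not say whether arrays of a group held different embryos, litters or pools, so the spread between them may be technical. In such bulk tissue, more cells of a type and more RNA per cell cannot be told apart.

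The 8 arrays of E8.75 were brighter, with a median raw intensity from 145.1 to 173.3 against 36.8 to 45.9 on the other 16, so embryonic stage and array brightness cannot be told apart there. After normalization the median SD within groups was 0.26 on the log2 scale at E8.75, 0.18 at E8.5 and 0.16 at E9.0. Signal below is normalized log2 intensity unless a fold is named, and it compares arrays for 1 probe, never 1 gene with another. Srf itself was lower in knockouts by a log2 change of -1.09 ± 0.19 (SE, adjusted p = 0.0168) at E8.5 and -0.81 ± 0.16 (adjusted p = 0.000777) at E9.0. At E8.75 the change was -1.005 ± 0.26 (adjusted p = 0.248), and control replicate 4, at 8.10, lay within the knockout range of 7.64 to 8.51. Where the Srf probe lies relative to the deleted segment was not analysed here. The tail bud list was detected in every group, with a list mean between 9.37 and 10.21 on all 24 arrays.

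At E9.0 most of these genes were higher in knockout caudal ends. Of the 29 genes, 23 were higher, 0 were lower and 6 did not pass the test (limma, Benjamini-Hochberg adjusted p under 0.05 over 11008 genes), while 13.5% of all genes were higher and 11.3% were lower. The median log2 change of the 29 was 0.71, beside 0.01 over all genes. The 4 knockout arrays lay above the 4 control arrays for 17 of the 29 genes and below them for none, while 14% of all genes were separated upward and 11.4% downward. Averaged over the 29 genes, the controls had a signal of 8.745 ± 0.23 (SD, n = 4) and the knockouts one of 9.45 ± 0.13. Control replicate 2 was the highest control for 26 of the 29 genes, and without it 24 genes were separated upward. Leaving out an array cannot lower that count, and the share of all genes separated without this array was not computed. Scaling the log2 values of arrays by their median in place of quantiles left 17 of the 29 genes higher and 0 lower. Of all 11008 genes, 731 were then higher and 2210 lower, and the share of upward calls among all called genes fell from 54.3% to 24.9%.

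**Figure D1:**
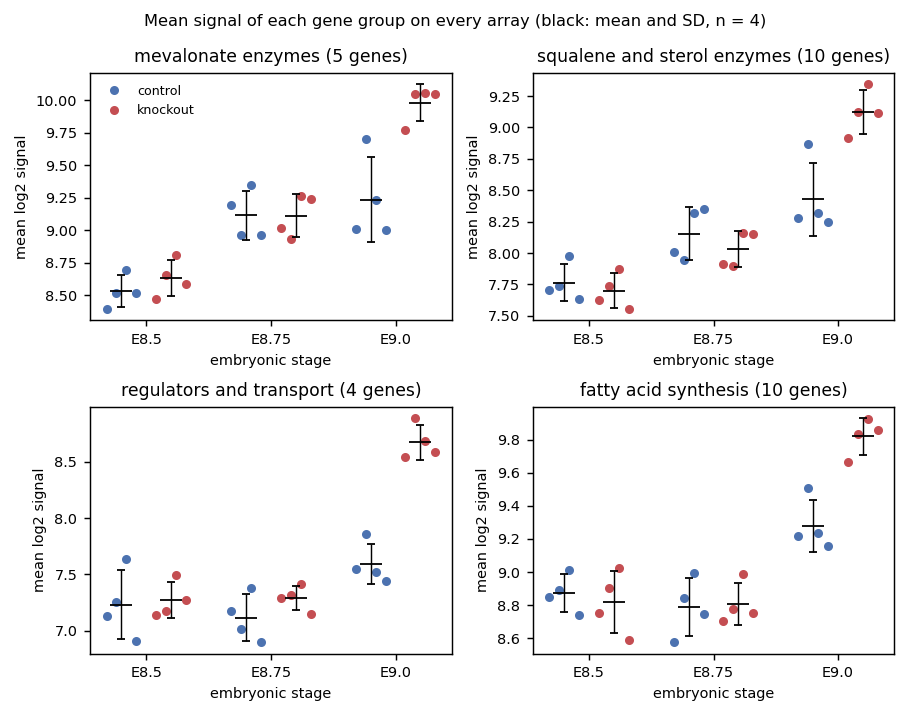
Mean log2 signal (vertical axis) of the mevalonate, sterol, regulator and fatty acid genes on each of the 24 arrays, by embryonic stage (horizontal axis), with controls in blue, knockouts in red and the mean and SD of 4 arrays in black. At E9.0 the knockout arrays lie above all controls in each panel, for example from 8.92 to 9.34 against 8.24 to 8.86 for the sterol enzymes.

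Of the mevalonate enzymes, which carry acetoacetyl-CoA to farnesyl diphosphate, 4 of 5 rose and their median log2 change was 0.80. Hmgcs1, which makes HMG-CoA, read 13.002, 13.30, 12.95 and 12.76 in the E9.0 controls and 13.69, 13.85, 13.91 and 13.78 in the knockouts. All knockout arrays were above all controls, with a log2 change of 0.80 ± 0.12 (SE, adjusted p = 4.09e-05). Its promoter is the one with the sterol element core shown above. Mvd, which decarboxylates mevalonate diphosphate, read 8.76, 9.76, 9.11 and 8.69 in controls and 10.12, 10.65, 10.39 and 10.40 in knockouts. The lowest knockout array exceeded the highest control, and the fold was 2.48 (log2 change 1.31 ± 0.16, adjusted p = 5.15e-06). Fdps, farnesyl diphosphate synthase, read 11.85, 12.59, 12.22 and 11.83 in controls and 12.86, 13.02, 12.99 and 13.002 in knockouts. These groups did not overlap either, and the knockout arrays lay within a narrower range than the controls. Pmvk, phosphomevalonate kinase, changed by 0.57 ± 0.14 (adjusted p = 0.00429), with 1 control at 7.70 above the lowest knockout at 7.41. Idi1, isopentenyl diphosphate isomerase, was detected on 8 of 24 arrays and changed by 0.20 ± 0.14 (adjusted p = 0.32), so its probe was too dim to follow.

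From squalene to cholesterol 9 of 10 enzymes rose, with a median log2 change of 0.72. Cyp51, the lanosterol demethylase, read 9.54, 10.09, 9.36 and 9.34 in controls and 10.21, 10.44, 10.81 and 10.56 in knockouts. The groups were separate by a small margin, with control replicate 2 nearest to the knockouts, and the fold was 1.90 (adjusted p = 0.00122). Nsdhl, a later sterol dehydrogenase, read 8.04, 8.79, 8.32 and 8.0 in controls and 8.94, 9.57, 9.26 and 9.16 in knockouts. Its log2 change was 0.95 ± 0.28 (adjusted p = 0.0149), and its other 3 probes gave 0.89, 1.02 and 0.71. The call for Nsdhl was lost without control replicate 4 and in a fit without array weights. Tm7sf2, a sterol reductase, read 5.19, 5.42, 4.90 and 4.97 in controls and 5.98, 6.13, 6.09 and 5.55 in knockouts. It stayed dim throughout, and its knockout arrays were all above the controls.

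The remaining sterol enzymes ranged from 0.36 to 0.86 in log2 change. Msmo1, a sterol methyl oxidase, changed by 0.86 ± 0.24 (adjusted p = 0.0101). Sqle, squalene epoxidase, which makes the oxidosqualene that Lss closes into lanosterol, read 11.14, 11.57, 11.03 and 10.93 in controls and 11.70, 11.78, 12.02 and 11.78 in knockouts, and its 2 probes gave 0.65 and 0.71. Lss, lanosterol synthase, changed by 0.71 ± 0.17 and Hsd17b7, a ketosteroid reductase of the pathway, by 0.60 ± 0.13. Dhcr7, the last enzyme on one branch, changed by 0.73 ± 0.19 (adjusted p = 0.0059). For Lss, Hsd17b7 and Dhcr7 control replicate 2 overlapped the knockout arrays. Ebp, the sterol isomerase, had a small change of 0.37 ± 0.10 (adjusted p = 0.0108) with groups that did not overlap. Its call was lost without array weights and with median scaling. Sc5d, a sterol desaturase, was dim and changed by 0.36 ± 0.16 (adjusted p = 0.113). It passed the test at an adjusted p = 0.0459 without control replicate 2.

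**Figure D2:**
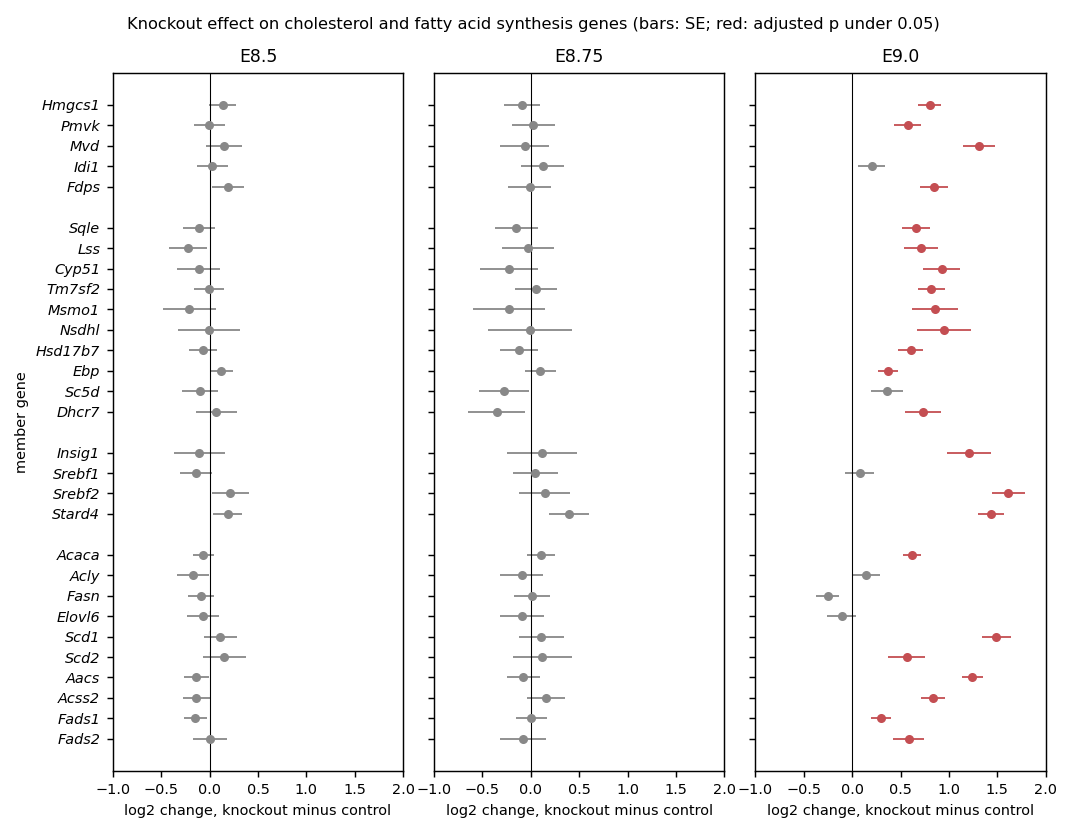
Log2 change between knockouts and controls (horizontal axis, knockout minus control, with SE) for each of the 29 genes in 1 panel per stage, grouped by role from top to bottom. At E9.0, 23 genes in red passed an adjusted p of 0.05, with the largest change for Srebf2 at 1.61, while at the earlier stages all points are grey and lie between -0.35 and 0.40.

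Among the regulators, 3 of 4 rose and 1 did not pass the test. Srebf2, which encodes SREBP-2, read 7.71, 7.81, 7.79 and 7.81 in the E9.0 controls and 9.47, 9.69, 9.20 and 9.21 in the knockouts. The controls were tightly grouped and the knockouts were about 3.06-fold higher (log2 change 1.61 ± 0.17, adjusted p = 4.58e-07), the largest change among the 29 genes. Stard4, a carrier that moves sterol between membranes, read 8.95, 9.29, 8.91 and 8.74 in controls and 10.44, 10.75, 10.18 and 10.26 in knockouts. The gap between the groups was wider than the range within either, and the fold was 2.71 (adjusted p = 1.22e-07). Insig1, which retains the SREBP precursors, read 7.69, 8.27, 7.78 and 7.50 in controls and 8.58, 9.14, 9.22 and 9.12 in knockouts. Its log2 change was 1.21 ± 0.23 (adjusted p = 0.000495), with knockout replicate 1 the lowest of its group. Another 2 probes of Insig1 gave 1.18 and 1.01, and a last one was detected on 0 arrays. Srebf1, which encodes SREBP-1, read 5.86, 6.06, 5.60 and 5.71 in controls and 5.67, 5.97, 6.14 and 5.75 in knockouts. Its groups overlapped fully, with a log2 change of 0.08 ± 0.15 (adjusted p = 0.758). A second Srebf1 probe was detected on 0 arrays.

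Among genes of fatty acid synthesis and activation, 7 of 10 rose, with a median log2 change of 0.57, and the 10 did not behave alike. Scd1, which puts the double bond into stearoyl-CoA, read 8.67, 9.41, 9.08 and 8.65 in controls and 10.31, 10.57, 10.41 and 10.48 in knockouts. The groups were far apart for their spread, with a fold of 2.81 (log2 change 1.49 ± 0.15, adjusted p = 2.42e-07). Aacs, which activates acetoacetate for lipid synthesis in the cytosol, read 9.24, 9.50, 9.41 and 9.14 in controls and 10.41, 10.67, 10.55 and 10.62 in knockouts. It had the smallest adjusted p of the 29 genes, 5.94e-08, for a fold of 2.36, and its promoter is the one shown above without a match. Acss2, which makes acetyl-CoA from acetate, read 6.55, 6.69, 6.74 and 7.01 in controls and 7.20, 7.62, 7.95 and 7.58 in knockouts. All 4 knockouts were higher, with a log2 change of 0.84 ± 0.12. Acaca, acetyl-CoA carboxylase, the committed step toward fatty acids, read 10.28, 10.46, 10.43 and 10.36 in controls and 11.04, 11.02, 11.03 and 10.93 in knockouts. Both groups were tight, and the change of 0.62 ± 0.09 had an adjusted p = 4.74e-05.

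The desaturases of polyunsaturated fatty acids and the remaining synthesis enzymes moved less. Fads2 changed by 0.58 ± 0.16 (adjusted p = 0.00793) and its groups did not overlap, and Fads1 changed by 0.30 ± 0.10 (adjusted p = 0.0365) with overlap. Scd2, a second stearoyl-CoA desaturase, read 8.58, 9.31, 8.43 and 8.54 in controls and 9.01, 9.34, 9.0 and 9.76 in knockouts. Control replicate 2 lay inside its knockout range, and the change was 0.56 ± 0.19 (adjusted p = 0.0361). In a fit of the E9.0 arrays alone, the calls for Scd2 and Fads1 were lost and 21 genes were higher. Acly, which makes cytosolic acetyl-CoA from citrate, changed by 0.15 ± 0.14 (adjusted p = 0.502). Elovl6, which lengthens palmitate, changed by -0.11 ± 0.15 (adjusted p = 0.646). Fasn, fatty acid synthase itself, read 5.30, 5.28, 4.84 and 5.04 in controls and 4.80, 5.14, 4.89 and 4.62 in knockouts. Its groups overlapped, with a change of -0.25 ± 0.12 (adjusted p = 0.127), on a dim probe detected on 2 of the 4 knockout arrays. Without knockout replicate 2, Fasn was lower at an adjusted p = 0.0374.

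At E8.5 and E8.75 none of the 29 genes passed the test. At E8.5, 0% of all genes were higher and 0.0454% were lower, and at E8.75 0.0818% were higher and 0.0454% were lower. At an unadjusted p under 0.05, 0 of the 29 were found at either stage, beside 297 and 669 of all genes. The log2 changes ranged from -0.23 for Lss to 0.21 for Srebf2 at E8.5, with a median of -0.07 and 11 of 29 positive. They ranged from -0.35 for Dhcr7 to 0.40 for Stard4 at E8.75, with a median of -0.01 and 14 positive. At E8.5 the controls averaged 8.21 ± 0.15 over the 29 genes (SD, n = 4) and the knockouts 8.19 ± 0.15, and at E8.75 these means were 8.40 ± 0.14 and 8.38 ± 0.11. The arrays of the genotypes were separated for 0 of the 29 genes at either stage, while 0.945% of all genes were separated upward and 1.08% downward at E8.5, and 2.03% and 1.98% at E8.75. For Stard4 at E8.75 the knockouts read 8.80, 8.64, 9.07 and 8.93 and the controls 8.46, 8.56, 8.748 and 8.09, which overlapped (change 0.40 ± 0.21, adjusted p = 0.83). Nsdhl varied most among the E8.75 controls, at 7.40, 5.21, 7.16 and 8.45, and its change there had an SE of 0.43. The model gave each gene a variance shared by all stages, so this spread also widened its SE of 0.28 at E9.0. Over the 29 genes the SE of the change ran from 0.15 to 0.43 at E8.75 and from 0.09 to 0.28 at E9.0. For each gene this difference came from the stage weights, 0.60 at E8.75 and 1.47 at E9.0. The stages thus differ in the size of change they could show.

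**Figure D3:**
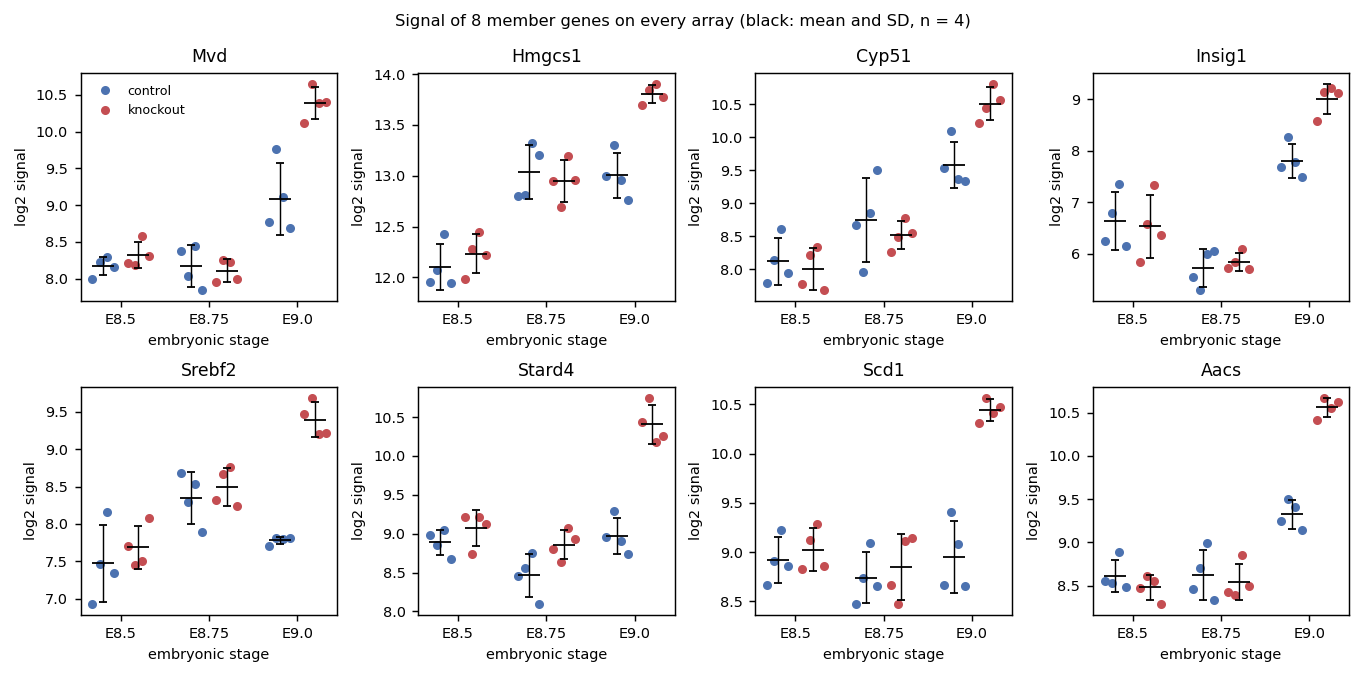
Log2 signal (vertical axis, a scale of its own in each panel) of Mvd, Hmgcs1, Cyp51, Insig1, Srebf2, Stard4, Scd1 and Aacs on every array by embryonic stage (horizontal axis), with controls in blue, knockouts in red and the mean and SD of 4 arrays in black. The genotypes overlap at E8.5 and E8.75 and are apart at E9.0, where Srebf2 lies from 7.71 to 7.81 in controls and from 9.20 to 9.69 in knockouts.

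The knockout effect itself was larger at E9.0 than at E8.5 for 10 of the 29 genes and smaller for 0 (interaction in the same limma model), beside 1.77% of all genes larger and 0.872% smaller. The largest differences of the effects were 1.40 ± 0.26 for Srebf2, 1.38 ± 0.23 for Scd1, 1.38 ± 0.17 for Aacs and 1.31 ± 0.35 for Insig1 (log2, SE). Stard4 followed with 1.25 ± 0.20, Mvd with 1.16 ± 0.25, Acss2 with 0.97 ± 0.19 and Tm7sf2 with 0.82 ± 0.21. Acaca and Hmgcs1 had 0.69 ± 0.14 and 0.67 ± 0.18, and the adjusted p of the 10 genes ran from 6.36e-05 for Aacs to 0.0477 for Hmgcs1. All 3 regulators that rose at E9.0 were among the 10, but of the 10 sterol enzymes tested Tm7sf2 alone was. The differences of these enzymes were still all positive, and 8 had an unadjusted p under 0.05 (limma). Their median was 0.79, beside 0.65 for the mevalonate and 0.51 for the fatty acid genes. Without control E9.0 replicate 2 the count of members with a larger effect was 17, with Pmvk, Fdps, Sqle, Lss, Cyp51, Hsd17b7 and Dhcr7 added. Over all 11008 genes, 154 were then larger and 111 smaller, beside 195 larger with all arrays. The count of members was 6 without array weights and 4 with median scaling (Srebf2, Stard4, Scd1 and Aacs). Over all genes, 64 were larger and 29 smaller without array weights, and 24 larger and 15 smaller with median scaling. The median difference over the 29 genes was 0.67. Averaged over the 3 stages, 8 genes were higher in knockouts and 0 lower, beside 4.24% and 3.05% of all genes, led by Stard4 at 0.67 and Srebf2 at 0.66. That count was 2 with median scaling and 5 to 8 when single arrays were left out, and Acaca kept its call in 4 of 24 such fits, Hmgcs1 in 6 and Fdps in 8.

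Between E8.5 and E9.0 the pathway rose in controls as well, in some genes and not in others. In controls 16 of the 29 genes were higher at E9.0 and 0 lower, beside 15.8% and 18.8% of all genes, and the median log2 change was 0.51. The arrays of the stages were separated upward for 15 of the 29 and downward for none, beside 15.7% and 19% of all genes. Cyp51 rose by 1.46 ± 0.21 (adjusted p = 1.16e-05), Fdps by 1.35 ± 0.15, Nsdhl by 1.24 ± 0.30, Lss by 1.22 ± 0.18 and Insig1 by 1.17 ± 0.25. Lss forms lanosterol, and Cyp51 and Nsdhl act on it and its products. Fads2 and Elovl6, of fatty acid synthesis, rose too, by 1.06 ± 0.17 and 0.94 ± 0.16. In contrast, the control changes of Stard4, Scd1, Tm7sf2, Acss2 and Acaca were 0.08 ± 0.14, 0.03 ± 0.16, -0.03 ± 0.15, -0.11 ± 0.13 and -0.20 ± 0.10, none past the test. Srebf2 changed by 0.31 ± 0.18 (adjusted p = 0.2) in controls and among the alternatives run it passed only without control E8.5 replicate 3. With median scaling, 13 genes were higher and Acaca passed as lower, at -0.47. That scaling put the median change of all genes at -0.12, with 1030 of 11008 genes higher and 2631 lower. The share of upward calls among all called genes fell from 45.8% to 28.1%.

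In knockouts 25 of the 29 genes were higher at E9.0 than at E8.5 and 0 lower, beside 16.5% and 18.2% of all genes, and the median log2 change was 1.30. All E9.0 knockouts lay above all E8.5 knockouts for 25 of the 29, while 14.3% of all genes were separated upward and 15.3% downward. Cyp51 rose by 2.50 ± 0.21, Insig1 by 2.48 ± 0.25, Nsdhl by 2.20 ± 0.30, Lss by 2.16 ± 0.18 and Msmo1 by 2.10 ± 0.25. Of the genes that did not pass in controls, Srebf2 rose by 1.71 ± 0.18, Scd1 by 1.42 ± 0.16, Stard4 by 1.33 ± 0.14, Acss2 by 0.86 ± 0.13, Pmvk by 0.85 ± 0.15, Hsd17b7 by 0.84 ± 0.14, Tm7sf2 by 0.79 ± 0.15, Sc5d by 0.68 ± 0.17 and Acaca by 0.49 ± 0.10. Elovl6 changed by 0.90 ± 0.16, close to its control value of 0.94, and Acly by 0.74 ± 0.15 beside 0.43 ± 0.15. The 4 genes that did not pass were Idi1, Ebp, Srebf1 and Fasn. The probes of Insig1 differed in controls, where the third detected probe gave -0.01 between stages and the one used gave 1.17. With median scaling 23 of the 29 genes were still higher in knockouts, beside 882 of all 11008 genes higher and 2678 lower. The share of upward calls among all called genes fell from 47.5% to 24.8%.

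**Figure D4:**
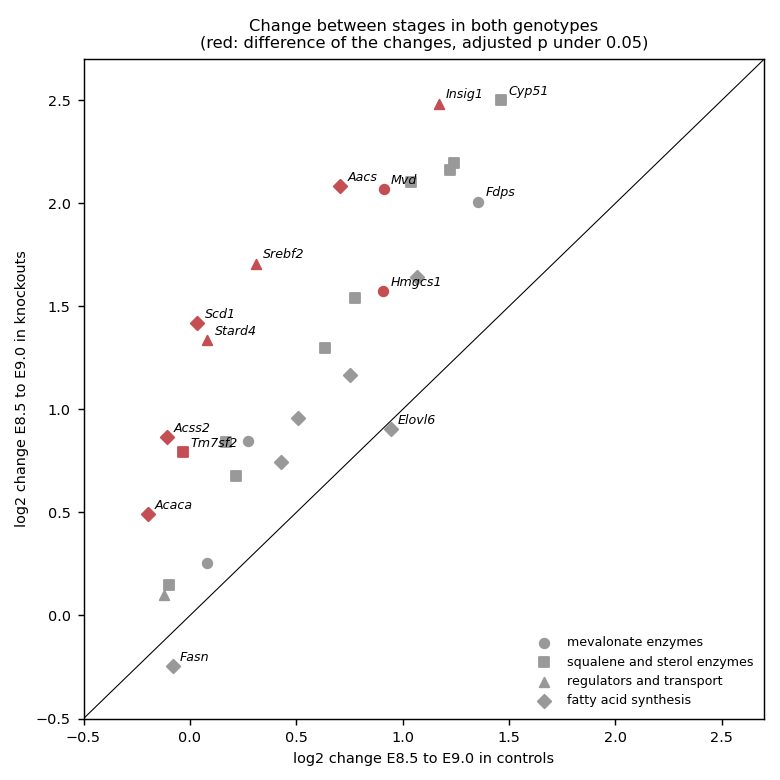
Log2 change from E8.5 to E9.0 in controls (horizontal axis) and in knockouts (vertical axis) for the 29 genes, with 1 symbol shape per role, the line of equal change, and the 10 genes whose changes differed (adjusted p under 0.05) in red. Srebf2, Stard4, Scd1, Acss2, Tm7sf2 and Acaca lie from -0.20 to 0.31 on the control axis and from 0.49 to 1.71 on the knockout axis, while Elovl6 lies near the line.

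Other genes of lipid metabolism were taken at E9.0 from lists that hold no member. These lists are short, and 13.5% of all genes were higher and 11.3% lower at that stage. Of 7 further sterol and isoprenoid genes tested, from a list of 11, 0 were called in either direction by limma, their median log2 change was -0.01, and 0 had an unadjusted p under 0.05. They include Scap, the escort of the SREBP precursors, and Mbtps1 and Mbtps2, the proteases that cleave them. The Mbtps2 probe was dim, at 4.33 to 5.08 over the 24 arrays and detected on 2 of 4 knockouts at E9.0. Of 3 genes of sterol uptake and transport tested, from a list of 12, 1 was higher. This was Npc2, which carries cholesterol out of lysosomes and read 7.37, 7.71, 7.39 and 7.57 in controls and 8.14, 8.09, 8.49 and 8.26 in knockouts (change 0.74, adjusted p = 0.000125). Apoe, a lipoprotein component, had a larger change of 0.82 ± 0.31 that did not pass (adjusted p = 0.0547), although its knockouts, at 6.25, 6.72, 5.92 and 6.44, all lay above its controls, at 5.43, 5.26, 5.85 and 5.51. Of 8 further genes of fatty acid and glycerolipid synthesis, from a list of 11, 3 were higher. Lpin1, a phosphatidate phosphatase, read 5.40, 6.01, 5.51 and 5.49 in controls and 6.66, 7.48, 7.09 and 7.51 in knockouts (change 1.58 ± 0.16, adjusted p = 2.27e-07). Slc25a1, the citrate carrier that supplies cytosolic acetyl-CoA, changed by 0.59 (adjusted p = 0.00226), and Elovl1, an elongase of long chains, by 0.38 (adjusted p = 0.0296). Of 5 genes of fatty acid oxidation, from a list of 8, Acadl, an acyl-CoA dehydrogenase, was lower by -0.60 (adjusted p = 0.0332) and 0 were higher.

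Lists of other cell types and responses were measured beside these genes. At E9.0 the mean of the primitive erythroid list was 9.84 to 11.29 in controls and 5.91 to 8.94 in knockouts, with 9 of 9 tested genes lower. The mean of the hypoxia and glycolysis list was 8.51 to 8.82 in controls and 9.78 to 10.19 in knockouts, with 8 of 11 genes higher. The endothelial list was 6.78 to 6.96 in controls and 5.96 to 6.69 in knockouts, with 1 of 6 genes lower beside 11.3% of all genes. Of the 6 tail bud genes tested, 2 were higher in knockouts at E9.0, beside 13.5% of all genes. The visceral yolk sac list, which marks a tissue rich in lipid transport genes, was near background at E9.0 in both genotypes, at 4.83 to 4.93 in controls and 4.77 to 5.01 in knockouts. There 5 of its 9 genes in controls and 4 in knockouts were detected on no array. At E8.5 the same list stood at 7.85 to 9.69 in controls and 7.60 to 10.32 in knockouts, and 9 of 9 genes fell to E9.0 in both genotypes. At E8.75 it stood at 5.47 to 6.47 in controls and 6.82 to 9.35 in knockouts. From E8.5 to E9.0, 9 of 9 erythroid genes rose in controls and 1 in knockouts. Of the 11 hypoxia and glycolysis genes, 6 fell and 0 rose in controls, while 9 rose and 1 fell in knockouts. Of the 6 endothelial genes, 4 rose in controls and 3 in knockouts. Beside these, 15.8% of all genes rose and 18.8% fell in controls, and 16.5% and 18.2% in knockouts. The part of the erythroid, hypoxia and endothelial differences in the E9.0 result was not tested. That of these lists and the yolk sac list in the changes between stages and in the interaction was not tested either.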

How the data were processed

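Total RNA of caudal ends was hybridised to 24 Illumina bead arrays, with GenomeStudio listed in the submitters' processing notes. The deposited table used holds bead intensity on a linear scale, not normalized, as read from its headers and values. Beside each intensity the authors deposited a detection p-value against negative controls. A second deposited table of intensity, whose columns share 1 distribution, served as an alternative. Intensities were background corrected by normexp (offset 16), brought to common quantiles and log2 transformed (neqc, limma 3.58.1, R 4.3.3). Of 25697 probes, 14927 passed the filter (4 or more arrays with detection p below 0.05). The table names 1 symbol for 23978 probes and none for 1719. The probe with the highest mean stood for a gene, which left 11008 to test.

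One limma model of 6 group means over 24 arrays was fitted, with array weights estimated per stage (E8.5 1.13, E8.75 0.60, E9.0 1.47), and 7 comparisons were made, each with Benjamini-Hochberg adjustment over 11008 genes and a threshold of 0.05. No pair of arrays held identical values. All members are described, and genes of the other lipid lists are named where called. Scap, Mbtps1, Mbtps2 and Apoe are named although they were not called. The members and lists were chosen with earlier results of these data known. No label says that replicate numbers pair arrays, and they were not used so in the model. The alternatives were weights, arrays fitted, background correction, normalization, the second table, filter, probe choice, replicate block and leaving out arrays. The number of arrays limits the precision.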

Additional observations from a re-analysis of the deposited data

Results flagged for a closer look

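For 10 genes the knockout effect at E9.0 differed from that at E8.5 in the interaction test (log2): Srebf2 by 1.40, Scd1 and Aacs by 1.38 each, Insig1 by 1.31, Stard4 by 1.25, Mvd by 1.16, Acss2 by 0.97, Tm7sf2 by 0.82, Acaca by 0.69 and Hmgcs1 by 0.67. All 10 were larger at E9.0.

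In 12 of 204 checks of a gene or gene group within a group of 4 arrays, 1 array stood apart from the other 3, and chance flags about 1 in 20. In controls these were replicate 2 at E9.0 for Scd2 (9.31) and for the mean of the sterol enzymes (8.86), both above the rest of their group. At E8.5 they were control replicate 1 for Tm7sf2 (4.77, low) and Acly (12.95, high), and control replicate 3 for Aacs (8.89, high). In knockouts at E9.0 they were replicate 1 for Insig1 (8.58) and for the mean of the mevalonate enzymes (9.77), and replicate 4 for Acaca (10.93), all below the rest. At E8.75 Acaca stood high in knockout replicate 3 (10.20) and Fads1 low in knockout replicate 4 (11.38). At E8.5 Fdps stood high in knockout replicate 3 (11.24) and Fasn low in knockout replicate 4 (4.83).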

How the results depend on the processing

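At E9.0 the count of genes higher in knockouts was between 17 and 23 over the alternatives and between 20 and 23 when single arrays were left out, and none was called lower except Fasn without knockout replicate 2. Median scaling divided the log2 values of each array by a factor that gave all arrays a common median, and was not a constant shift. It lowered the median change at E9.0 to 0.52, that of controls between E8.5 and E9.0 to 0.24 and that of knockouts to 1.06. The last median was 1.08 with offset 50, 1.02 without background correction and 1.04 from the second deposited table. The count of genes with a larger effect at E9.0 than at E8.5 was 6 without array weights, 4 with median scaling, 14 at most, and 7 to 17 when single arrays were left out. The count averaged over stages was 2 with median scaling and 5 to 8 when single arrays were left out. The causes were not tested. Without the 8 arrays of E8.75, chosen after seeing the data, 22 genes were higher at E9.0 and 7 had a larger effect. At E8.5 and E8.75 the count was 0 throughout. With median scaling the calls at E9.0 for Pmvk, Ebp, Dhcr7, Scd2, Fads1 and Fads2 were lost, and those for Scd2 and Fads1 were lost most often over all alternatives. No label says that replicate numbers pair the arrays, and deviations of same-numbered arrays did not all run together (correlations from -0.255 to 0.400 between genotypes and from -0.188 to 0.233 between stages), though replicate 3 had the highest mean over the 29 genes in 5 of 6 groups. With the replicate block, 21 genes were higher at E9.0, 13 had a larger effect there, 9 were higher averaged over stages, 16 rose in controls and 25 in knockouts. A fit with the chip as a block was not run, since the files used here name no chip. Dim probes (Idi1, Fasn, Sc5d, Tm7sf2, Mbtps2) limit what small changes can show.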
